A study of Rattus norvegicus with 17 samples.

Results

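The RNA levels of DNA repair genes were compared in the meibomian gland (MG), the lipid-secreting gland of the eyelid, of rats with and without UVB irradiation of the eyelids. The genes were chosen by name, for their role in repairing or tolerating damaged DNA, and 35 of the 37 named genes were listed among the 17251 genes of the table. They fell into 13 genes of nucleotide excision repair, 5 of translesion synthesis, 8 of repair tied to replication, 6 of base excision and single-strand break repair, and 3 kinases of damage signalling. Ercc4, an excision nuclease subunit, and Chek1, a checkpoint kinase, were not analysed here, as no row carried their symbols.

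The rats were female Sprague-Dawley animals of 10 to 12 weeks, in 4 groups with 1 library per rat. They were 4 untreated wild-type rats (Control WT), 5 untreated P1.hMR rats (Control P1.hMR), 3 WT rats after 5 daily UVB exposures of the shaved upper eyelids (UVB WT) and 5 P1.hMR rats after the same exposures (UVB P1.hMR). P1.hMR rats carry a transgene in which the P1 promoter of the human NR3C2 gene drives the human mineralocorticoid receptor, in all tissues where that promoter is active and not in the MG alone. The control rats were not irradiated, and whether their eyelids were shaved is not given in the sources used here. The labels give 1 sample per rat, whereas the methods of the study count samples in eyes, so the spread within a group was taken as the spread between libraries.

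UVB light joins neighbouring pyrimidines of DNA into bulky photoproducts. In nucleotide excision repair, DDB1 and DDB2 or XPC find such lesions across the genome, ERCC8 and ERCC6 find them where they stall RNA polymerase, the TFIIH helicases open the helix, and nucleases cut out the damaged strand. Photoproducts that remain when DNA is copied are bypassed by translesion polymerases, and stalled or broken replication forks are handled by the Fanconi anaemia proteins, BRCA1, BRCA2, BLM and EXO1, whose genes are mostly transcribed in dividing cells. Base excision repair removes small oxidized or deaminated bases, and ATM, ATR and their downstream kinases signal the damage.

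Promoter sequences are shown first for 4 genes whose levels are described below, because many genes of DNA replication share E2F sites near their start. RefSeq promoters (build GRCr8, 250 bases before to 50 after the start, length 300) were matched by symbol for 31 of the 35 genes. The E2F letters searched on both strands were TTTCCCGC, TTTCGCGC, TTTGCCGC and TTTGGCGC, and the cell cycle homology region was searched as TTTGAA, which overlaps none of them. Capitals mark a match or its reverse complement. Exo1, the replication-tied gene with the highest fold change, lies on the plus strand with its promoter at chr13:90341768-90342067 and held neither motif. Fancd2 (plus strand, chr4:148234458-148234757) held an E2F match starting 9 bases after the start. Ung (minus strand, chr12:48153996-48154295) held an E2F match from position -20 and a TTTGAA match from position -166. Polk, which was lower after UVB, held an E2F match starting 23 bases after its start (minus strand, chr2:29616911-29617210).
Exo1: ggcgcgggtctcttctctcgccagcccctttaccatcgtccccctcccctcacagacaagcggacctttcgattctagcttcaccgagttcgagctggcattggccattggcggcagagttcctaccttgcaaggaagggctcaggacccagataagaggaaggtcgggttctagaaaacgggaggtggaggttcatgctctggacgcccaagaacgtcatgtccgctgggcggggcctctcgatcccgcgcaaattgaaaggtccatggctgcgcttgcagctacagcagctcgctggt
Fancd2: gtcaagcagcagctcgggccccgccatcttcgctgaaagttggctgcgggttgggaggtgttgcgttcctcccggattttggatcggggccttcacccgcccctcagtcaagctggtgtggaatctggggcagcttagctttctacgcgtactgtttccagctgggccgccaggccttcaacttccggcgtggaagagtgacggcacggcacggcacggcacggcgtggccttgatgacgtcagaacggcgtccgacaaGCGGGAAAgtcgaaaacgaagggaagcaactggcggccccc
Ung: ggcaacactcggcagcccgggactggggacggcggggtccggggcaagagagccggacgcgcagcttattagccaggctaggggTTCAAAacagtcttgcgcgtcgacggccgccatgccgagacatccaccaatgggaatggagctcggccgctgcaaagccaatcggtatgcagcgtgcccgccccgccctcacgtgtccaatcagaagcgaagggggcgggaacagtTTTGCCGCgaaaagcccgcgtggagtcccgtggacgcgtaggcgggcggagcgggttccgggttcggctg
Polk: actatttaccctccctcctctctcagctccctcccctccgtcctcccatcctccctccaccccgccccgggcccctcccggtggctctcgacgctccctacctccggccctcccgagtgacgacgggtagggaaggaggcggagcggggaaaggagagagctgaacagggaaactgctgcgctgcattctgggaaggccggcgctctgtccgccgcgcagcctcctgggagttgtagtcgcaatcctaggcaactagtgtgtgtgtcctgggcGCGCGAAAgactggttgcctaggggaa

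E2F letters stood in the promoters of 5 of the 31 matched genes (16.1%), Fancd2, Msh6, Polk, Ung and Atm, against 2.14% of all 33469 promoters of that length. The sets differ, as each matched gene was counted once, whereas the 33469 are all entries, whether or not their genes have values here. None of the 11 matched nucleotide excision repair genes held them, and 2 of the 7 replication-tied genes did. Of 11 matched markers of DNA replication and proliferation, 7 held them (63.6%), as did 12 of 73 other repair genes (16.4%). The TTTGAA letters were as common in the 31 genes (6 genes, 19.4%) as in all promoters (18.3%). A match describes the letters of these windows only.

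Across the 17 rats, the listed values, in TPM (transcript abundance scaled to gene length and to the library), made up 80.4% to 84.1% of a full TPM total, and 12372 to 12737 genes reached 1 TPM per rat. Correlations between rats on the log2 scale lay between 0.9694 and 0.9933. The meibocyte genes Scd, Awat2 and Cidea were far above all repair genes, with Scd at 23994 to 31198 TPM, whereas Mogat2, also on the meibocyte list, stayed under 1 TPM in every rat. The rat Nr3c2 gene, which does not report the human transgene, ranged from 9.27 to 25.9 TPM in control and from 6.33 to 11.6 TPM in UVB rats. Some markers of other eyelid cells differed after UVB. The summed level of 7 skeletal muscle markers was 2150 to 3861 TPM in control and 1629 to 3346 TPM in UVB rats, which overlapped, and 1 of the 7 was called lower in each genotype. For 9 hair shaft keratins, the sum was 313.4 to 834.5 TPM in control and 185.3 to 475.0 TPM in UVB rats, with 5 called lower for WT and 3 for P1.hMR rats. The sum of 4 fibroblast markers was 601.7 to 1034 TPM in control and 801.8 to 1374 TPM in UVB rats, with 3 called higher in each genotype and 1 called lower in P1.hMR rats. The 4 endothelial markers summed to 24.04 to 30.4 TPM in Control WT and 33.16 to 40.51 TPM in UVB WT rats. In P1.hMR rats the sums overlapped, at 25.98 to 31.95 TPM in controls and 31.48 to 37.51 TPM after UVB. Of the endothelial markers 1 was called higher in each genotype, and 3 of 4 melanocyte markers were called lower in WT rats and 0 in P1.hMR rats. Of 9 leukocyte markers tested, 2 were called higher in each genotype, Cd8a and Cd163. In contrast, 3 of the 9 in WT and 6 in P1.hMR rats had a log2 fold change below 0. The sum of 11 listed leukocyte markers was 131.4 to 417.5 TPM in Control WT and 117.8 to 185.7 TPM in UVB WT rats. For P1.hMR rats it was 136.8 to 380.9 TPM in controls and 174.1 to 242.6 TPM after UVB. Of all genes tested, 3.92% were called higher and 3.98% lower in WT, and 5.05% and 5.71% in P1.hMR rats. In tissue of mixed cells, fewer cells of a type and less RNA per cell cannot be told apart. The part of these tissues in the repair results was not tested beyond a fit with muscle and hair covariates. Each covariate was the mean log2(TPM + 1) of the markers in a rat, not the sum given above. The values of that fit stand beside the calls it ended. Under that fit 5 of the 18 repair genes that passed the adjusted p averaged over genotypes still did, namely Apex1, Chek2, Exo1, Rad18 and Xrcc1. Of the averaged calls it left Exo1 (0.60) and brought Rad18 (0.433), Chek2 (0.459) and Xrcc1 (-0.460) under the size needed.

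Mean levels of the repair genes over all rats spanned from 1.19 TPM for Exo1 to 203 TPM for Rad23b. Nucleotide excision repair genes had a median over genes of 16.1 TPM, with Ddb2 the lowest at 5.05 TPM. The replication-tied genes had the lowest median, 2.76 TPM, with 7 of the 8 at 3.94 TPM (Fancd2) or less, and Msh6, a mismatch recognition gene, at 21.4 TPM. Base excision genes had a median of 33.7 TPM, translesion genes 6.07 TPM and the kinases 5.42 TPM. Within the order of levels, neighbours such as Xpa (10.5 TPM), Xpc (10.3 TPM) and Ercc8 (10.03 TPM) overlapped in their rats.

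**Figure D1:**
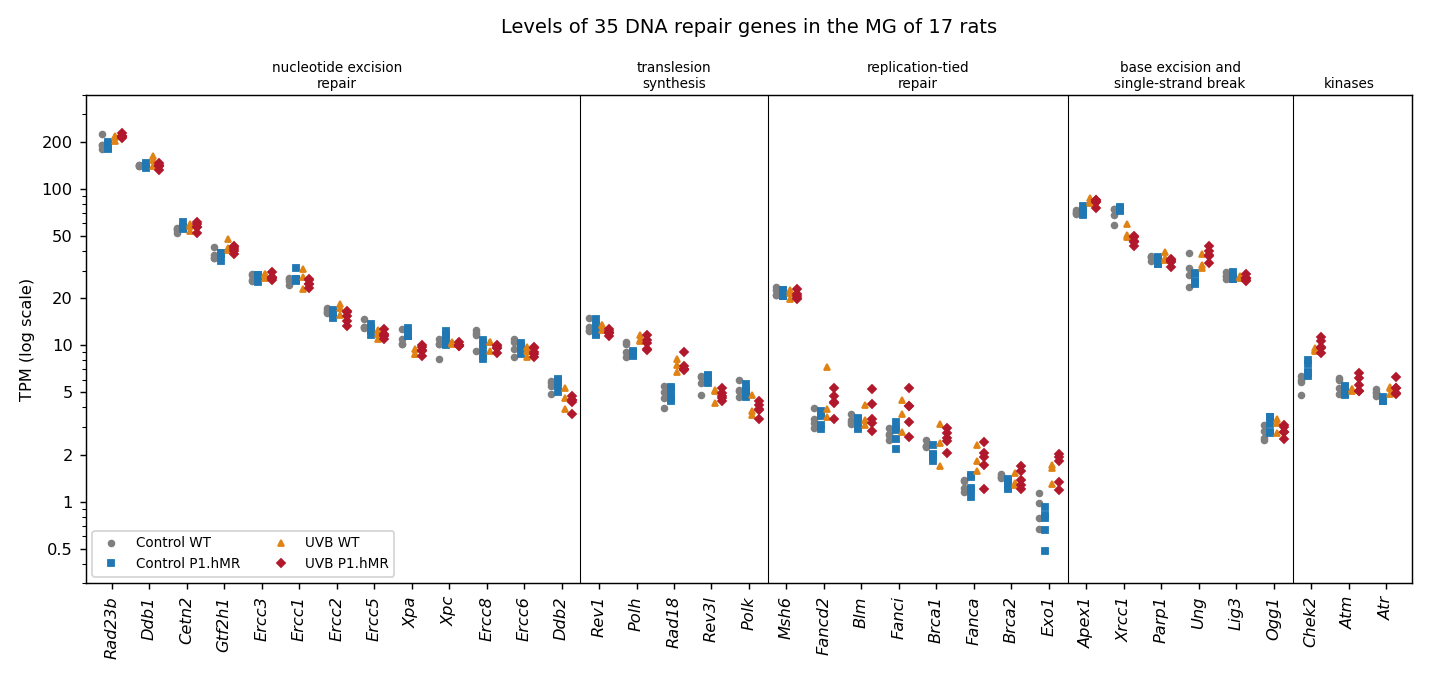
TPM (log axis) of the 35 listed repair genes in every rat, ordered by mean level within each role; each point is 1 rat, coloured by group. Nucleotide excision repair genes ranged from 5.05 to 203 TPM with the 4 groups close together, while 7 of 8 replication-tied genes lay under 4 TPM on average, and the UVB rats of Exo1 and Rad18 sat above all their controls.

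Each response was measured as the difference of log2(TPM + 1) in limma, which understates the change of genes near 1 TPM, and calls needed both a Benjamini-Hochberg adjusted p under 0.05 and a log2 fold change of 0.5 or more in either direction. In WT rats, 2 of the 35 genes were called higher, Rad18 and Chek2, and 0 lower, where 3.92% of all 13105 genes tested were called higher and 3.98% lower. In P1.hMR rats, 3 were called higher, Rad18, Exo1 and Ung, and 1 lower, Xrcc1, where 5.05% of all genes were called higher and 5.71% lower. Averaged over the genotypes, Rad18, Exo1 and Chek2 were called higher and Xrcc1 lower, against 4.6% and 4.88% of all genes. With 35 genes a single call moves such a share by almost as much as these background shares, so nothing was read from the counts.

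Counted by adjusted p alone, 4 genes were higher and 3 lower in WT rats, beside 11.2% and 10.3% of all genes. In P1.hMR rats the counts were 10 higher and 5 lower, beside 18.5% and 20.6% of all genes. Averaged over the genotypes, 12 were higher and 6 lower, beside 23.3% and 24.0% of all genes. Over the 35 genes the median log2 fold change was 0.05 for WT and 0.0064 for P1.hMR rats, where that of all genes was 0.0054 and -0.016.

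Of the 13 nucleotide excision repair genes 0 were called in WT, in P1.hMR or averaged over genotypes by limma, beside background shares that give few calls among 13 genes. An unadjusted p under 0.05 was found for 5 in WT and 3 in P1.hMR rats, where 35.3% and 47.6% of all genes had one. The WT median of the log2 fold change was 0.04 and the P1.hMR median -0.08, and without rat 1 of the UVB WT group the WT median was -0.016. Averaged over genotypes, the 95% interval of the log2 fold change lay within 0.5 of no change for all 13 of 13 genes, the lowest bound being -0.40, for Ddb2, and the highest 0.25, for Rad23b.

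Of the lesion sensors, Ddb2, the subunit that binds photoproducts, was at 4.86, 5.50, 5.72 and 5.89 TPM in Control WT and at 5.36, 3.89 and 4.57 TPM in UVB WT rats. In the P1.hMR genotype Ddb2 was at 5.01, 5.78, 6.09, 5.50 and 5.93 TPM in controls and at 4.76, 3.63, 4.49, 4.35 and 4.46 TPM after UVB. The groups overlapped for WT but were apart for P1.hMR rats. Ddb2 fell with a log2 fold change of -0.32 ± 0.08 (SE) in P1.hMR rats (limma adjusted p = 0.0053), and the value in WT rats was -0.22 ± 0.10 (adjusted p = 0.125). Its partner Ddb1 was far more abundant, at 131 to 161 TPM over all rats, with log2 fold changes of 0.10 for WT (adjusted p = 0.124) and -0.01 for P1.hMR rats (adjusted p = 0.80). Xpc, the sensor of distorted helices, was at 8.21 to 10.9 TPM in Control WT and 10.1 to 10.4 TPM in UVB WT rats, and its log2 fold changes of 0.07 and -0.12 in WT and P1.hMR rats did not pass the test (adjusted p = 0.60 and 0.168). Rad23b, which stabilizes XPC, was at 180 to 199 TPM in Control P1.hMR and 210 to 228 TPM in UVB P1.hMR rats with no overlap, and it rose there by a log2 fold change of 0.21 ± 0.05 (adjusted p = 0.0041). In WT rats its groups overlapped and the value was 0.11 ± 0.06 (adjusted p = 0.21). Cetn2, the third protein of the XPC complex, stayed between 52.3 and 61.2 TPM in all rats.

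Xpa, the scaffold that verifies the damage, was the excision gene with the lowest adjusted p. It was at 10.2, 10.2, 12.7 and 10.9 TPM in Control WT and at 8.79, 9.49 and 8.77 TPM in UVB WT rats. Xpa levels in P1.hMR rats were 12.0, 11.5, 12.4, 12.8 and 11.4 TPM in controls and 9.25, 8.54, 9.68, 10.1 and 9.14 TPM after UVB. All UVB rats lay below all controls of their genotype, and the mean TPM after UVB was 0.821 of the control mean for WT and 0.778 for P1.hMR rats. Xpa fell in both genotypes by limma, with log2 fold changes of -0.26 ± 0.07 (adjusted p = 0.023) and -0.33 ± 0.06 (adjusted p = 0.00056), under the size needed for a call. The adjusted p stayed under 0.05 in 22 of the 27 alternatives for WT, not without Control WT rat 3 (0.067), UVB WT rat 1 (0.0672) or UVB WT rat 3 (0.0714), and in 27 of 27 for P1.hMR rats. The WT result was also lost with only the groups compared and with the muscle and hair covariates. The averaged result of Xpa was lost with these covariates alone.

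The rest of the pathway moved less. Ercc5, the nuclease that cuts on the 3′ side of the lesion, fell averaged over genotypes with a log2 fold change of -0.14 ± 0.04 (adjusted p = 0.0146), and its UVB rats lay below all controls in WT but not in P1.hMR rats. Gtf2h1, a core TFIIH subunit, rose averaged over genotypes by 0.15 ± 0.04 (adjusted p = 0.0112), from control means of 38.0 TPM in WT and 37.7 TPM in P1.hMR to UVB means of 43.4 and 40.9 TPM. The TFIIH helicase genes Ercc2 and Ercc3 had averaged log2 fold changes of -0.03 and 0.02, and Ercc1, partner of the 5′ nuclease, -0.03, with adjusted p between 0.65 and 0.68. The transcription-coupled repair genes Ercc6 and Ercc8 had averaged values of -0.09 (adjusted p = 0.194) and -0.06 (adjusted p = 0.47). Of 14 other excision repair genes, 0 were called in either genotype by limma, while 0 for WT and 6 for P1.hMR rats had an unadjusted p under 0.05 (35.3% and 47.6% of all genes), and their medians were 0.0094 and -0.018.

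**Figure D2:**
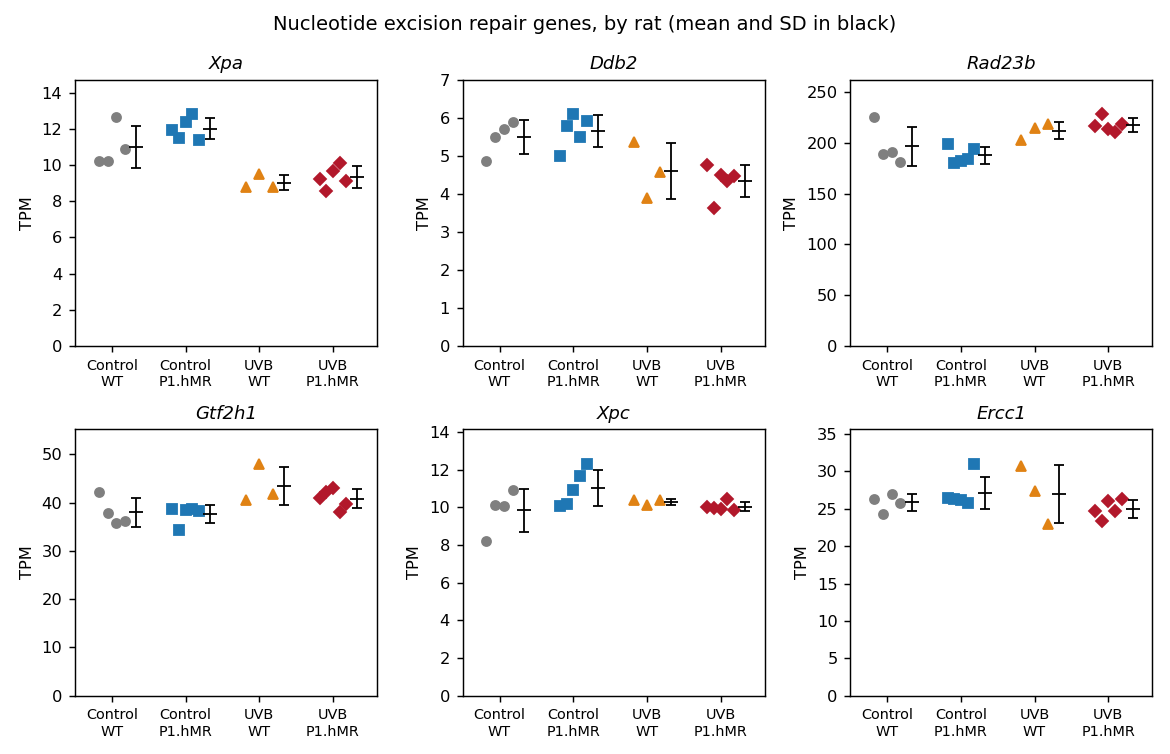
TPM of 6 nucleotide excision repair genes in every rat (linear axes from 0); points are rats by group, and black marks give the mean and SD. Xpa lay lower in all UVB rats than in the controls of the same genotype, Ddb2 and Rad23b separated only in P1.hMR rats, and the groups of Xpc, Ercc1 and Gtf2h1 overlapped in both genotypes.

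The genes of repair tied to replication had a higher median response. Of the 8, 1 was called, Exo1, in P1.hMR rats and averaged over genotypes, where 5.05% and 4.6% of all genes were called higher. The median log2 fold change stood at 0.18 for WT and 0.26 for P1.hMR rats. Above 0 lay 6 and 7 of the 8, beside 6704 and 6176 of all 13105 genes tested. Exo1, the exonuclease of mismatch repair and of DNA end resection (Entrez gene 305000), was at 1.14, 0.98, 0.79 and 0.67 TPM in Control WT and at 1.72, 1.29 and 1.63 TPM in UVB WT rats. The P1.hMR controls were at 0.66, 0.82, 0.78, 0.92 and 0.48 TPM, and the UVB P1.hMR rats at 1.34, 1.18, 1.83, 2.01 and 1.92 TPM. All UVB rats lay above all controls in both genotypes, and the mean TPM was 1.73 and 2.26 times the control mean. Exo1 rose in P1.hMR rats with a log2 fold change of 0.61 ± 0.11 (limma adjusted p = 0.00049) and in WT rats with 0.43 ± 0.13 (adjusted p = 0.032), the first of which was called. None of 26 alternatives lost the call in P1.hMR rats, where the log2 fold change ranged from 0.56 to 1.08. With a pseudocount of 0.1 the WT value of Exo1 was 0.74 (adjusted p = 0.0385) and was called. The WT value passed the adjusted p in 19 of 26, and not without Control WT rat 3 (0.0735), Control WT rat 4 (0.0876), UVB WT rat 1 (0.102) or UVB WT rat 3 (0.0891). The WT value also failed with only the groups compared, with a block for the replicate number and with the muscle and hair covariates. The mean over genotypes, 0.52, fell just under 0.5 without Control WT rat 4 (0.491), Control P1.hMR rat 5 (0.492), UVB WT rat 1 (0.495) or UVB P1.hMR rat 4 (0.496).

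The Fanconi anaemia genes had log2 fold changes above 0 in both genotypes, with a wide spread between rats. Fanca, of the core ubiquitin ligase complex, was at 1.37, 1.16, 1.36 and 1.23 TPM in Control WT and at 2.29, 1.56 and 1.81 TPM in UVB WT rats, without overlap. For P1.hMR the range was 1.07 to 1.49 TPM in controls and 1.21 to 2.39 TPM after UVB, with overlap. It rose by a log2 fold change of 0.31 ± 0.11 in P1.hMR rats (adjusted p = 0.029), and the WT value was 0.33 ± 0.13 (adjusted p = 0.077). Fancd2 and Fanci encode the pair of proteins that the core complex modifies at stalled forks. Fancd2 was at 2.95, 3.39, 3.98 and 3.19 TPM in Control WT and at 7.22, 3.49 and 3.89 TPM in UVB WT rats, so that 1 rat stood far above the rest. Averaged over genotypes, Fancd2 rose by 0.33 ± 0.11 on the log2 scale (adjusted p = 0.0193) and Fanci by 0.33 ± 0.11 (adjusted p = 0.0163), but without UVB WT rat 1 the values were 0.20 (adjusted p = 0.0589) and 0.27 (adjusted p = 0.0572). In WT rats alone neither passed the test, with values of 0.37 (adjusted p = 0.124) and 0.31 (adjusted p = 0.187), whereas in P1.hMR rats Fanci passed it with 0.36 (adjusted p = 0.0456) and Fancd2, at 0.30, did not (adjusted p = 0.105). The P1.hMR result passed the adjusted p in 12 of 27 alternatives for Fanci and in 19 of 26 for Fanca. For Fanca it was lost without Control P1.hMR rats 1, 2 or 5 or UVB P1.hMR rats 3, 4 or 5, with adjusted p from 0.0539 to 0.0842, and for Fanci without any of 12 of the 17 rats (0.0505 to 0.126). Both were also lost with the muscle and hair covariates, and Fanci without a filter on low values and with only the groups compared.

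Brca1 and Brca2, which direct recombination at broken forks, Blm, a helicase that unwinds recombination intermediates, and Msh6 did not pass the test in either genotype. Brca1 was at 2.22 to 2.47 TPM in Control WT and 1.70 to 3.12 TPM in UVB WT rats, and its log2 fold changes were 0.02 for WT and 0.23 for P1.hMR rats (adjusted p = 0.947 and 0.0755). The 95% interval of the averaged response was -0.04 to 0.29 for Brca1, -0.11 to 0.13 for Brca2, -0.07 to 0.29 for Blm and -0.13 to 0.05 for Msh6.

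The replication-tied genes varied between UVB rats together with the markers of DNA replication and proliferation. Rat 1 of the UVB WT group had the highest value of its group for 8 of the 8 replication-tied genes and 14 of the 14 proliferation markers. Rat 2 of the UVB P1.hMR group had the lowest value for 7 of the 8 genes and 13 of the 14 markers, and rat 4 the highest for 7 and 10. For the 13 nucleotide excision repair genes the same rats held 7 of the highest, 6 of the lowest and 4 of the highest values. Without UVB WT rat 1 the replication-tied median in WT rats was 0.032 instead of 0.183. Without UVB P1.hMR rat 4 the P1.hMR median was 0.215 instead of 0.264. With the muscle and hair covariates the medians were 0.335 and 0.37, and with the 5 translesion genes added to the 8 they were 0.054 and 0.197.

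The proliferation markers themselves were higher after UVB. Their summed level was 296.5 to 354.5 TPM in Control WT and 395.1 to 509.4 TPM in UVB WT rats, and 287.3 to 341.2 TPM in Control P1.hMR and 371.1 to 506.6 TPM in UVB P1.hMR rats. All 14 had a log2 fold change above 0 in both genotypes, and none of the 14 was at 0 in all rats. Of them, 5 were called higher for WT and 8 for P1.hMR rats, where 3.92% and 5.05% of all genes were. Rrm2, which makes deoxyribonucleotides, rose by log2 fold changes of 1.32 ± 0.15 for WT (adjusted p = 4.55e-05) and 1.54 ± 0.12 for P1.hMR rats (adjusted p = 4.6e-07). Mki67, a marker of cycling cells, did not pass the test in either genotype alone, with 0.41 (adjusted p = 0.0703) and 0.19 (adjusted p = 0.25). Averaged over genotypes, 13 of the 14 markers were higher by adjusted p, where 23.3% of all genes were. The part of proliferating cells in the replication-tied responses was not tested.

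Among the translesion genes, responses went in both directions. Rad18 (Entrez gene 362412), the ubiquitin ligase that marks PCNA at stalled forks and so recruits bypass polymerases, was at 5.48, 5.02, 4.57 and 3.98 TPM in Control WT and at 8.20, 7.49 and 6.70 TPM in UVB WT rats. With the transgene Rad18 was at 4.70, 5.26, 5.39, 4.56 and 4.40 TPM in controls and at 7.03, 7.05, 6.94, 9.09 and 7.37 TPM after UVB. All UVB rats lay above all controls, with mean TPM 1.57 and 1.54 times the control mean. Rad18 rose by log2 fold changes of 0.56 ± 0.11 for WT (limma adjusted p = 0.0019) and 0.53 ± 0.09 for P1.hMR rats (adjusted p = 0.000195), the only one of the 35 genes called in both. With a pseudocount of 0.1 in place of 1, Chek2 (0.70 and 0.50) and Exo1 (0.74 and 1.08) were also called in both. Both values of Rad18 with the pseudocount of 1 were close to the size needed for a call. In WT rats the call was lost without Control WT rat 4 (0.490) or UVB WT rat 1 (0.495) and in P1.hMR rats without UVB P1.hMR rat 4 (0.469), each time by size and not by adjusted p. With the muscle and hair covariates the log2 fold changes were 0.42 for WT (adjusted p = 0.185) and 0.45 for P1.hMR rats (adjusted p = 0.0187), and the averaged value was 0.433, each under the size for a call.

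Polh, the polymerase that copies across thymine dimers and is lost in a variant form of xeroderma pigmentosum, was at 10.2, 10.5, 9.03 and 8.43 TPM in Control WT and at 10.8, 11.7 and 10.6 TPM in UVB WT rats. Its P1.hMR range was 8.57 to 9.15 TPM in controls and 9.38 to 11.7 TPM after UVB. The groups did not overlap in either genotype, and Polh rose by 0.20 ± 0.07 on the log2 scale in P1.hMR rats (adjusted p = 0.028) with the same size, 0.20 ± 0.08, in WT rats (adjusted p = 0.096). The P1.hMR result for Polh passed the adjusted p in 21 of 27 alternatives, and not without Control P1.hMR rats 2, 3 or 4 or UVB P1.hMR rats 3 or 5 (adjusted p from 0.0511 to 0.0822). It was also lost with the muscle and hair covariates. Polk, a bypass polymerase for bulky adducts, was at 4.63 to 5.99 TPM in Control WT and 3.59 to 4.83 TPM in UVB WT rats, and at 4.69 to 5.68 and 3.35 to 4.42 TPM in P1.hMR rats. It fell in both genotypes, with log2 fold changes of -0.30 ± 0.10 (adjusted p = 0.0425) and -0.31 ± 0.08 (adjusted p = 0.0082), which passed the adjusted p in 14 and 26 of 27 alternatives. Rev3l, the catalytic subunit of polymerase zeta, fell in P1.hMR rats with a log2 fold change of -0.31 ± 0.07 (adjusted p = 0.0040), with no overlap between 5.73 to 6.48 TPM in controls and 4.42 to 5.35 TPM after UVB, and the WT value was -0.21 ± 0.09 (adjusted p = 0.099). Rev1, the scaffold of these polymerases, had values of -0.0006 and -0.08 (adjusted p = 0.997 and 0.32).

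**Figure D3:**
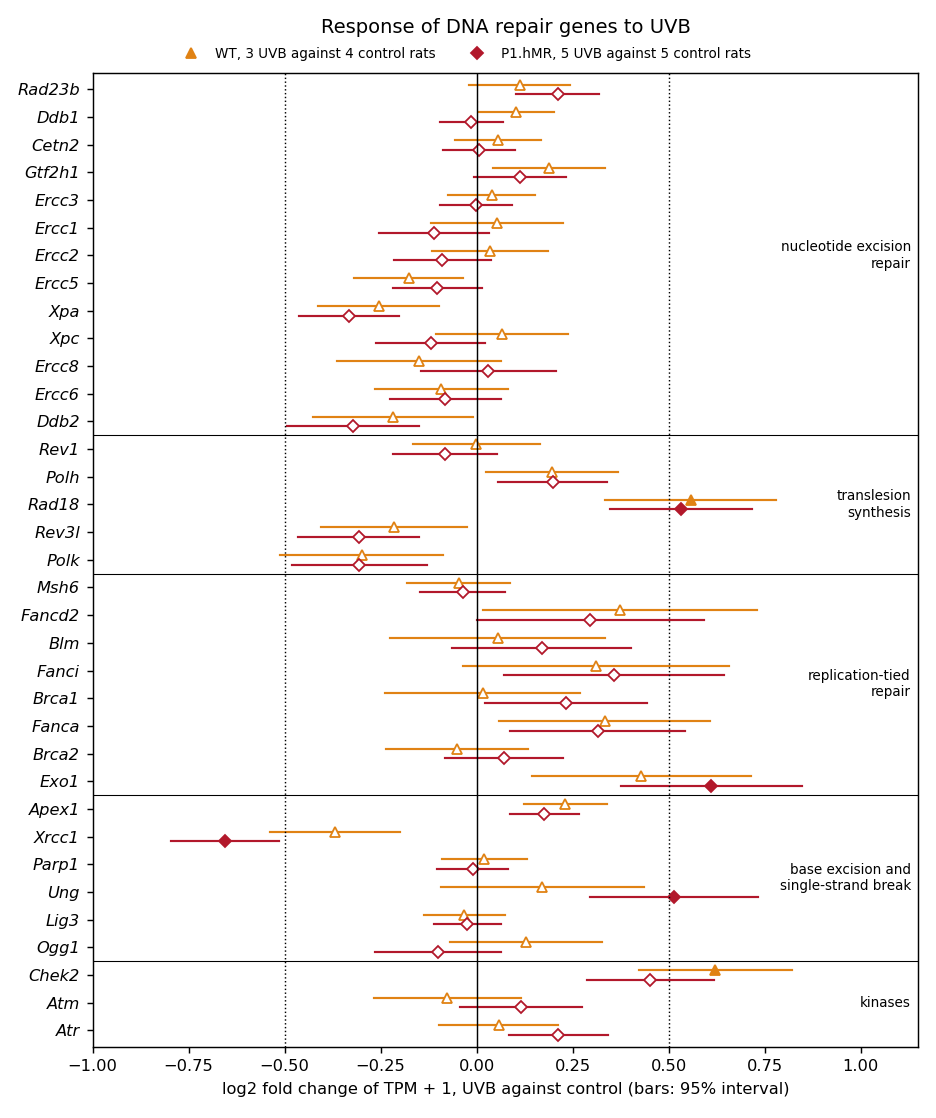
Log2 fold change of TPM + 1 after UVB for each repair gene (horizontal axis, dotted lines at 0.5 either way), in WT (triangles) and P1.hMR rats (diamonds), with 95% intervals; filled symbols are called genes. The 13 nucleotide excision repair genes stayed within the dotted lines, and the filled symbols are Rad18 in both genotypes, Chek2 in WT, and Exo1, Ung and Xrcc1 in P1.hMR rats.

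In base excision and single-strand break repair, Xrcc1 (Entrez gene 84495), the scaffold that gathers ligase III at nicks, had the largest change. It was at 58.5, 74.5, 68.4 and 74.5 TPM in Control WT and at 59.4, 49.4 and 50.5 TPM in UVB WT rats. Levels with the transgene were 76.1, 74.5, 75.4, 73.1 and 71.8 TPM in controls and 45.5, 43.0, 49.0, 50.2 and 46.3 TPM after UVB. The lowest control, Control WT rat 1, overlapped with UVB WT rat 1, whereas in P1.hMR rats the groups lay well apart. Xrcc1 fell in P1.hMR rats with a log2 fold change of -0.65 ± 0.07 (limma adjusted p = 3.94e-06), to 0.631 of the control mean TPM, and no alternative lost this call. In WT rats it fell with a log2 fold change of -0.37 ± 0.08 (adjusted p = 0.0044), to 0.77 of the control mean, which was not called. The averaged value of -0.51 was close to the size needed, and 6 alternatives brought its size under 0.5, the muscle and hair covariates (-0.460) and the fits without Control WT rat 2 (-0.493), Control WT rat 4 (-0.493), UVB WT rat 2 (-0.488), UVB WT rat 3 (-0.495) or UVB P1.hMR rat 2 (-0.497).

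Ung (Entrez gene 304577), the glycosylase that removes uracil from DNA, was at 38.8, 31.2, 23.6 and 28.1 TPM in Control WT and at 31.3, 32.4 and 38.1 TPM in UVB WT rats, which overlapped. The P1.hMR rats were at 28.6, 28.7, 25.3, 24.7 and 25.5 TPM in controls and at 43.2, 38.0, 40.2, 33.3 and 37.3 TPM after UVB, which did not. Ung rose by 0.51 ± 0.10 on the log2 scale in P1.hMR rats (adjusted p = 0.00102), and the WT value was 0.17 ± 0.12 (adjusted p = 0.35). The call in P1.hMR rats was lost by size without Control P1.hMR rat 3 (0.497) or rat 4 (0.489) or UVB P1.hMR rat 1 (0.471) or rat 3 (0.496).

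Apex1, the endonuclease that cuts at abasic sites, was among the most abundant repair genes and changed little in size but evenly. It was at 73.6, 71.3, 70.4 and 68.9 TPM in Control WT and at 83.3, 86.7 and 80.7 TPM in UVB WT rats, without overlap, and at 67.7 to 78.1 and 75.7 to 84.8 TPM in P1.hMR rats, with overlap. It rose in both genotypes, by log2 fold changes of 0.23 ± 0.05 (adjusted p = 0.0050) and 0.18 ± 0.04 (adjusted p = 0.0037). Parp1, the sensor of strand breaks, and Lig3, the ligase bound by XRCC1, stayed at averaged values of 0.0048 and -0.03, with 95% intervals of -0.07 to 0.08 and -0.10 to 0.04. Ogg1, the glycosylase for oxidized guanine, had values of 0.13 for WT and -0.10 for P1.hMR rats (adjusted p = 0.35 and 0.33).

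**Figure D4:**
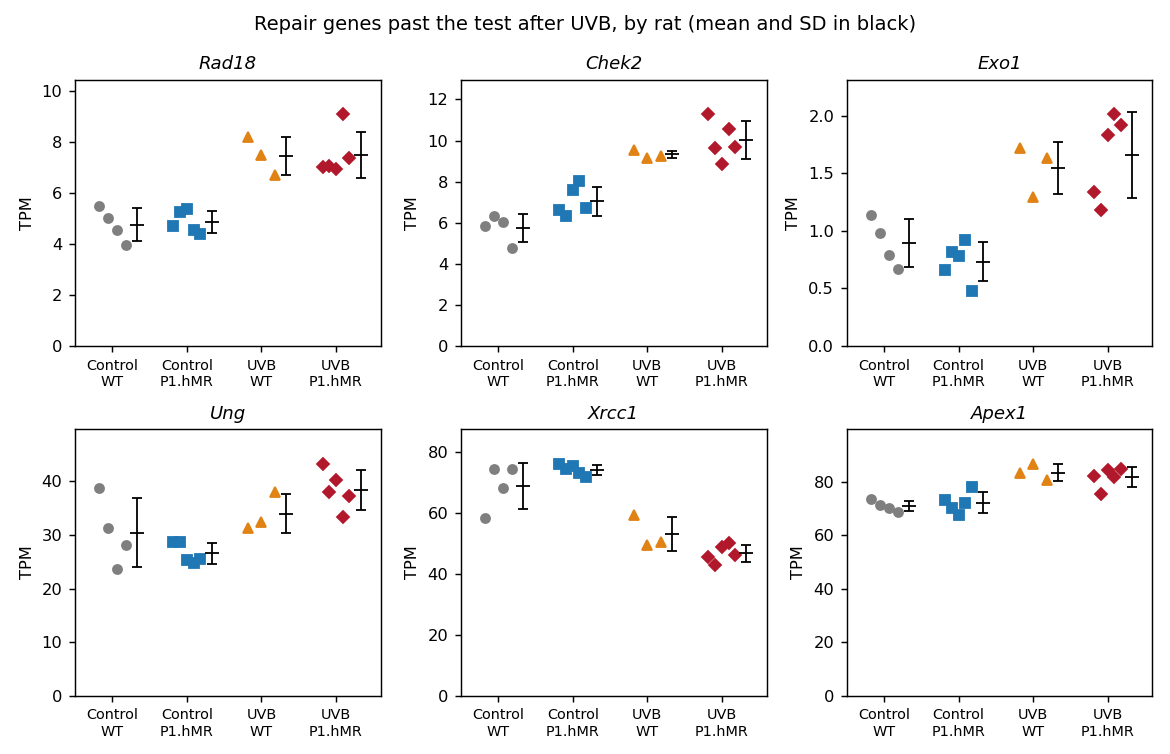
TPM of 6 repair genes in every rat (linear axes from 0), with mean and SD in black; points are rats by group. Rad18, Chek2 and Exo1 lay higher in all UVB rats than in the controls of the same genotype, Ung separated in P1.hMR rats, Xrcc1 was lower in all UVB P1.hMR rats, and Apex1 was higher with a small step.

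Of the kinases, Chek2 (Entrez gene 114212), which ATM activates after strand breaks, was at 5.82, 6.33, 6.02 and 4.79 TPM in Control WT and at 9.53, 9.17 and 9.27 TPM in UVB WT rats. Chek2 in P1.hMR rats was at 6.61, 6.34, 7.59, 8.01 and 6.71 TPM in controls and at 11.3, 9.66, 8.87, 10.6 and 9.68 TPM after UVB. All UVB rats lay above all controls of their genotype. Chek2 rose by 0.62 ± 0.09 on the log2 scale in WT rats (limma adjusted p = 0.00043), which was called, and by 0.45 ± 0.08 in P1.hMR rats (adjusted p = 0.0003), under the size for a call. Mean TPM was 1.62 and 1.42 times the control mean. With the muscle and hair covariates the WT value was 0.52 and no longer passed the test (adjusted p = 0.0727), and the averaged value was 0.459. Atr, the kinase of stalled forks, was at 4.37 to 4.64 TPM in Control P1.hMR and 4.90 to 6.24 TPM in UVB P1.hMR rats, and rose there by 0.21 ± 0.06 (adjusted p = 0.0109), with 0.06 ± 0.07 in WT rats (adjusted p = 0.61). Atm, the kinase of double-strand breaks, had values of -0.08 and 0.11 (adjusted p = 0.59 and 0.24).

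None of the 35 was called by limma between P1.hMR and WT in control rats, where 0.00763% of all genes were called, in UVB rats (0.0229%) or for the interaction of genotype and UVB (0.0% of all genes). At an unadjusted p under 0.05 there were 3 in control rats, 4 in UVB rats and 2 for the interaction, where 4.03%, 10.3% and 6.92% of all genes had such a p, so these counts lay near the background. The 3 in controls were Chek2, at 0.26 ± 0.08 higher in P1.hMR rats on the log2 scale, Xpc, at 0.15 ± 0.07, and Ercc8, at -0.24 ± 0.09, all at an adjusted p of 0.998. Those of the interaction were the 2 genes with the widest gap between genotypes, Xrcc1 with -0.29 ± 0.10 (95% interval -0.50 to -0.07, adjusted p = 0.70) and Ung with 0.34 ± 0.16 (0.0006 to 0.69, adjusted p = 0.71). The calls made in 1 genotype alone were therefore not shown to differ between genotypes. The 95% interval of the interaction lay within 0.5 of no difference for 30 of the 35 genes, with a median half-width of 0.22, and reached past 0.5 for Brca1, Fancd2, Exo1, Ung and Xrcc1, the widest being that of Fancd2 (-0.54 to 0.39).

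Beyond the 35 genes, 91 of 93 other listed repair genes were tested. In WT rats Eme1 and Clspn were called higher and 0 lower, and in P1.hMR rats Xrcc2, Eme1 and Clspn were called higher and Xrcc4 lower, beside the 3.92% of all genes called higher in WT and 5.05% higher and 5.71% lower in P1.hMR rats. Eme1, a partner of the MUS81 nuclease at stalled forks, was at 2.12 to 2.25 TPM in Control WT and 3.55 to 4.32 TPM in UVB WT rats. Its log2 fold changes were 0.59 ± 0.14 for WT (adjusted p = 0.0063) and 0.54 ± 0.11 for P1.hMR rats (adjusted p = 0.0013). Clspn, the mediator through which ATR signals, had 0.67 ± 0.16 (adjusted p = 0.0069) and 0.63 ± 0.13 (adjusted p = 0.00115), and did not overlap between groups in either genotype. Of 30 other recombination and Fanconi genes, 2 for WT and 9 for P1.hMR rats were higher by adjusted p, and 0 were lower. Of all genes, 11.2% in WT and 18.5% in P1.hMR rats were higher, and 10.3% and 20.6% lower. Of 8 end-joining genes, 0 were higher or lower in WT rats, and 1 was higher and 2 lower in P1.hMR rats, where 18.5% of all genes were higher and 20.6% lower by adjusted p. Of 15 listed p53 target genes, 1 was called higher in WT, Pmaip1, and 2 in P1.hMR rats, Pmaip1 and Ccng1. The shares of all genes called higher were 3.92% and 5.05%. Cdkn1a, the p53-induced inhibitor of the cell cycle, had log2 fold changes of 0.16 (adjusted p = 0.28) and 0.36 (adjusted p = 0.0034).

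**Figure D5:**
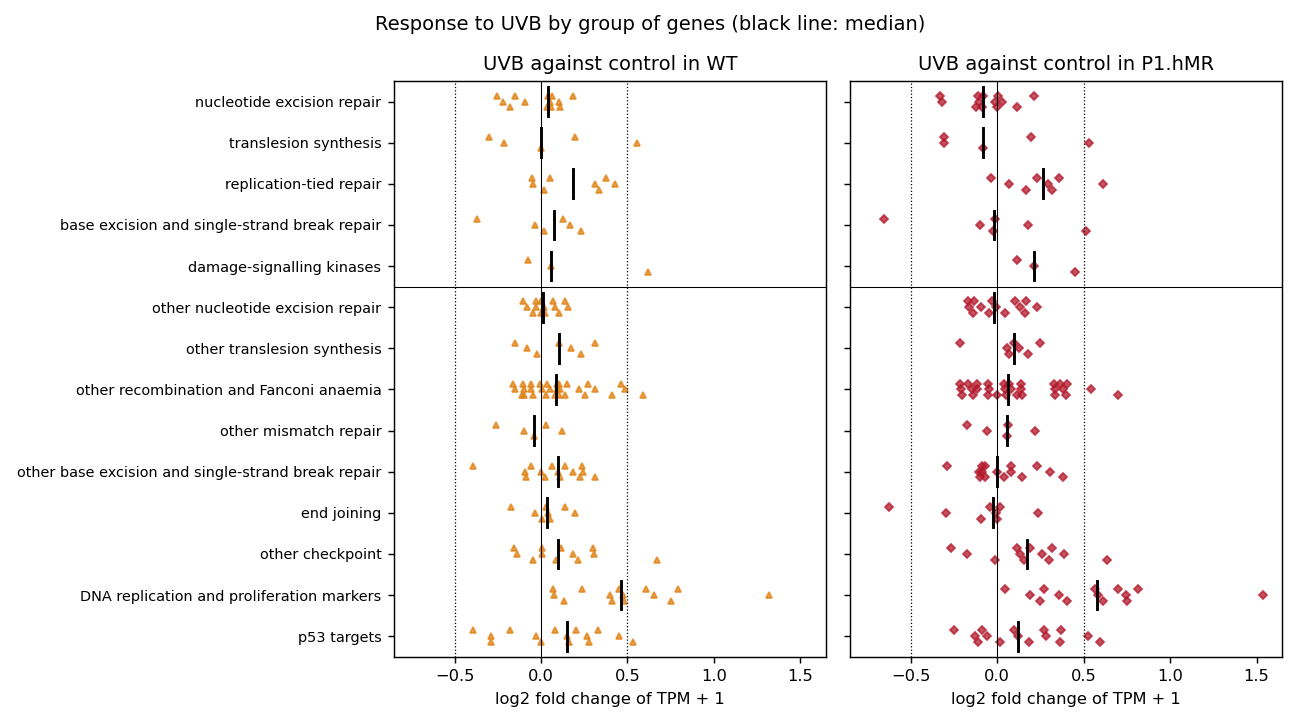
Log2 fold change of TPM + 1 after UVB of each gene (points) by role, in WT (left) and P1.hMR rats (right), with black lines at the median; the upper 5 rows are the 35 repair genes. The median lay at 0.04 and -0.08 for nucleotide excision repair, at 0.18 and 0.26 for replication-tied repair, and at 0.46 and 0.58 for the 14 markers of DNA replication and proliferation.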

How the data were processed

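RNA-seq of the MG of 17 female rats was analysed, with the control rats (4 WT, 5 P1.hMR) and the irradiated rats (3 WT, 5 P1.hMR) grouped by their labels. The authors deposited 1 table of TPM per gene and rat with 2 decimals. Per the labels, the submitters' processing notes name FastQC, Trimmomatic, DRAGEN, Picard and the build rn7, whereas the methods of the study name STAR and RSEM, so the software behind the values is unclear. TPM keeps no counts, the depth is unknown, and precision comes from the spread between rats. TPM is relative within a library, so a rise of abundant genes lowers the others.

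Values were analysed as log2(TPM + 1) in R 4.3.3 with limma 3.58.1, with a variance trend and a mean per group over all 17 rats, for the 13105 genes that reached 1 TPM in 3 or more rats. All 35 listed repair genes passed this filter. Adjusted p-values are two-sided and Benjamini-Hochberg corrected over all genes tested. Errors are standard errors of limma, intervals are 95%, and ratios are of mean TPM. Summaries used Python 3.11.15 with pandas 2.3.3 and numpy 2.4.6, and figures matplotlib 3.10.9.

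The repair genes, their grouping by role, the other lists and the tests were chosen with earlier results of these data known. Every one of the 37 was accounted for, and of the other repair genes those called in both UVB comparisons were to be named; Xrcc2, Xrcc4 and the proliferation, p53 and meibocyte genes given with values were picked after these were seen. The alternatives left out each rat in turn or set the pseudocount to 0.1. They dropped the low-value filter or raised it to a mean of 2 TPM, or rescaled by quantiles or by median ratios. Others fitted the compared groups alone, without the trend, with weights per rat, with a replicate block or with muscle and hair covariates. Each covariate was the mean of its markers in a rat on the log scale, not their sum. The fold change threshold was also moved. The promoters shown were chosen after their motifs and the responses of the genes were known.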

Additional observations from a re-analysis of the deposited data

Results flagged for a closer look

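In 5 of 105 groups of 4 or 5 rats, 1 rat lay far from the others by Dixon's criterion, and chance alone gives about 5% of groups. Ercc1 was at 30.95 TPM in Control P1.hMR rat 5, where the other 4 lay between 25.82 and 26.41 TPM. In the same rat Ercc3 was at 25.29 TPM, below the 27.21 to 28.03 TPM of the others. Ercc5 was at 14.65 TPM in Control WT rat 2, above 12.96 to 13.11 TPM in the other 3, which widened its distance from the UVB WT rats. Gtf2h1 was at 34.44 TPM in Control P1.hMR rat 2, against 38.24 to 38.66 TPM. Rad18 was at 9.09 TPM in UVB P1.hMR rat 4, above 6.94 to 7.37 TPM in the others, and without this rat the log2 fold change of Rad18 in P1.hMR rats was 0.469 and no longer called.

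The fitted UVB responses had the same sign in both genotypes for 25 of the 35 genes. On the log2(TPM + 1) scale, every UVB WT rat lay on one side of its control mean and every UVB P1.hMR rat on the other for Xpc and Ogg1 alone. For Ogg1 this did not hold in TPM, where UVB WT rat 3 was at 2.73 and the Control WT mean at 2.735. The response of Xpc was lower in P1.hMR than in WT rats by a log2 difference of -0.186 (limma interaction, adjusted p = 0.768) and that of Ogg1 by -0.228 (adjusted p = 0.758), so neither difference passed the test.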

How the results depend on the processing

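Of 2826 values of single repair genes under the alternatives, 2747 kept their direction and their side of the call, 22 lost a call, 4 gained one, 53 changed sign without being called in either fit, and 0 reversed a called direction. These values cover the UVB responses in WT, in P1.hMR and averaged, where 2, 4 and 4 genes were called in the main fit. Most values therefore had no call to lose. The averaged call of Xrcc1 was lost in 6 of 27 alternatives. The covariates for muscle and hair markers moved the results most, leaving 0 genes called and 0 past the adjusted p in WT rats. In P1.hMR rats 3 of the 4 calls stayed, Exo1, Ung and Xrcc1, and 7 genes passed the adjusted p. Averaged over genotypes, 1 was called and 5 passed the adjusted p. The shares of all genes under that fit are not given here. The cause of the lost calls was not tested. Fitting only the groups compared left 3 genes past the adjusted p in WT rats. Without a fold change threshold 7, 15 and 18 genes were called in WT, in P1.hMR and on average, and with an absolute log2 fold change of 1 there were 0 in each. Leaving out 1 rat at a time gave 1 to 4 calls and 4 to 10 genes past the adjusted p in WT rats, and 2 to 4 calls on average. The fewest calls in WT rats came without Control WT rat 4 or UVB WT rat 1 and the most without UVB WT rat 2, and the 2 on average came without Control WT rat 4. The WT median of nucleotide excision repair ranged from -0.016 to 0.062 in these fits, the lowest without UVB WT rat 1, so its sign is not fixed.

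The rats carry replicate numbers that recur between groups. Deviations of same-numbered rats correlated with a median r of -0.0051 (range -0.187 to 0.235, 22 pairs). For differently numbered rats the median was 0.00802 (range -0.264 to 0.181, 85 pairs). These values gave no sign that the numbers pair the rats, though so few pairs cannot exclude it. With the replicate block, 2 genes were called in WT, 4 in P1.hMR and 4 on average, as without it, and 5, 15 and 18 passed the adjusted p.

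The depth of the libraries is unknown. Exo1, Fanca and Brca2 lay near 1 TPM, and a filter at a mean of 2 TPM left them out.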
